A study of Mus musculus with 30 samples.

Results

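Calb1 encodes calbindin-D28k, a cytosolic calcium buffer of the EF-hand family, and it was followed here through every array probe annotated to it. The probes were selected by gene symbol: 4 of the 16896 probes on the array carried Calb1 as their only symbol, and Calb1 was 1 of 7151 genes with such a probe. The probes are named by the accessions of their cDNA clones, BG084302, BG071405, BG072229 and BG076015, and were read apart because they did not measure the same level. The gene itself was chosen from a readout of these arrays, since it stands in the list of genes that the study drew from COX-1-/- against COX-1+/+ cortex. The Calb1 values of that contrast are therefore given as a description, with no test.

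Calbindin-D28k binds calcium through EF-hand loops and shapes the calcium transients that follow neuronal firing. In the hippocampus it is a classic marker of dentate granule cells and of part of the CA1 pyramidal cells, and in the cortex it marks a class of GABA interneurons and upper layer neurons. Cyclooxygenases make prostaglandins from arachidonic acid, and COX-1 and COX-2 are the products of the separate genes Ptgs1 and Ptgs2.

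The study hybridized cortex and hippocampus RNA of mice lacking COX-1 or COX-2, and of their wild types, to nylon cDNA arrays. There were 30 arrays in 10 groups of 3, all from mice 12 weeks old. In each region the groups were COX-1-/- and COX-1+/+ from a COX-1 line, and COX-2-/-, COX-2+/- and COX-2+/+ from a COX-2 line. Both lines had a mixed C57BL6/6-129/Ola background and were kept as separate colonies. Null and wild-type mice came from different matings and were not littermates, and the nulls carried a constitutive deletion, in every cell type alike. How the heterozygous mice were bred is not given in the sources used here. No heterozygous group of the COX-1 line was among the samples analysed here.

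Each value is a Z score, the natural log of a spot's intensity centred on a mean and divided by an SD. In the deposited table each of the 2 parts of every array had a mean of 0 and an SD of 1, as the array had as a whole. A Z of 0 is the average spot, which the study took as its limit of background. Differences in Z are in units of an array's SD and cannot be read as folds. Arrays of one group correlated at r = 0.984 to 0.993 over the second part of the table. In the first part, 5 of the 6 COX-1 cortex arrays held the same values. All 4 Calb1 probes lay in the second part, and each had 6 different values over those 6 arrays. The deleted genes could not be used to check the genotype labels, because 0 probes were annotated to Ptgs1 and 0 to Ptgs2. Of markers that separate the regions, 1 of 5 dentate granule cell probes and 0 of 6 cortical layer probes had a mean Z above 0. The check of the labelled tissues against their markers therefore rests on few probes. In RNA of whole tissue, fewer Calb1 cells and less Calb1 RNA per cell cannot be told apart.

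Probes of Calb1 fell into a brighter and a dimmer pair. BG071405 had a mean Z of 0.194 and was above 0 on 30 of 30 arrays. BG084302 had a mean Z of 0.176 and was above 0 on 25 of 30. BG072229 averaged -0.578 and BG076015 averaged -0.759, and both were below 0 on every one of the 30 arrays. Under the study's criterion only the first 2 probes were above background, and the results below turn on them.

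The bright probes differed in how far their levels ranged between groups. The 2 COX-1 cortex groups were left out here, because their contrast chose the gene. Over the other 8 groups the means of BG084302 spanned 0.424 Z, a wider span than in 97.7% of the 8014 probes with a mean Z above 0, where the median span was 0.174. For BG071405 the span was 0.154, wider than in 38.1% of those probes. BG084302 also varied more within groups, with a pooled within-group SD of 0.105, against 0.0396 for BG071405 and a median of 0.0649 over the same 8014 probes.

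**Figure D1:**
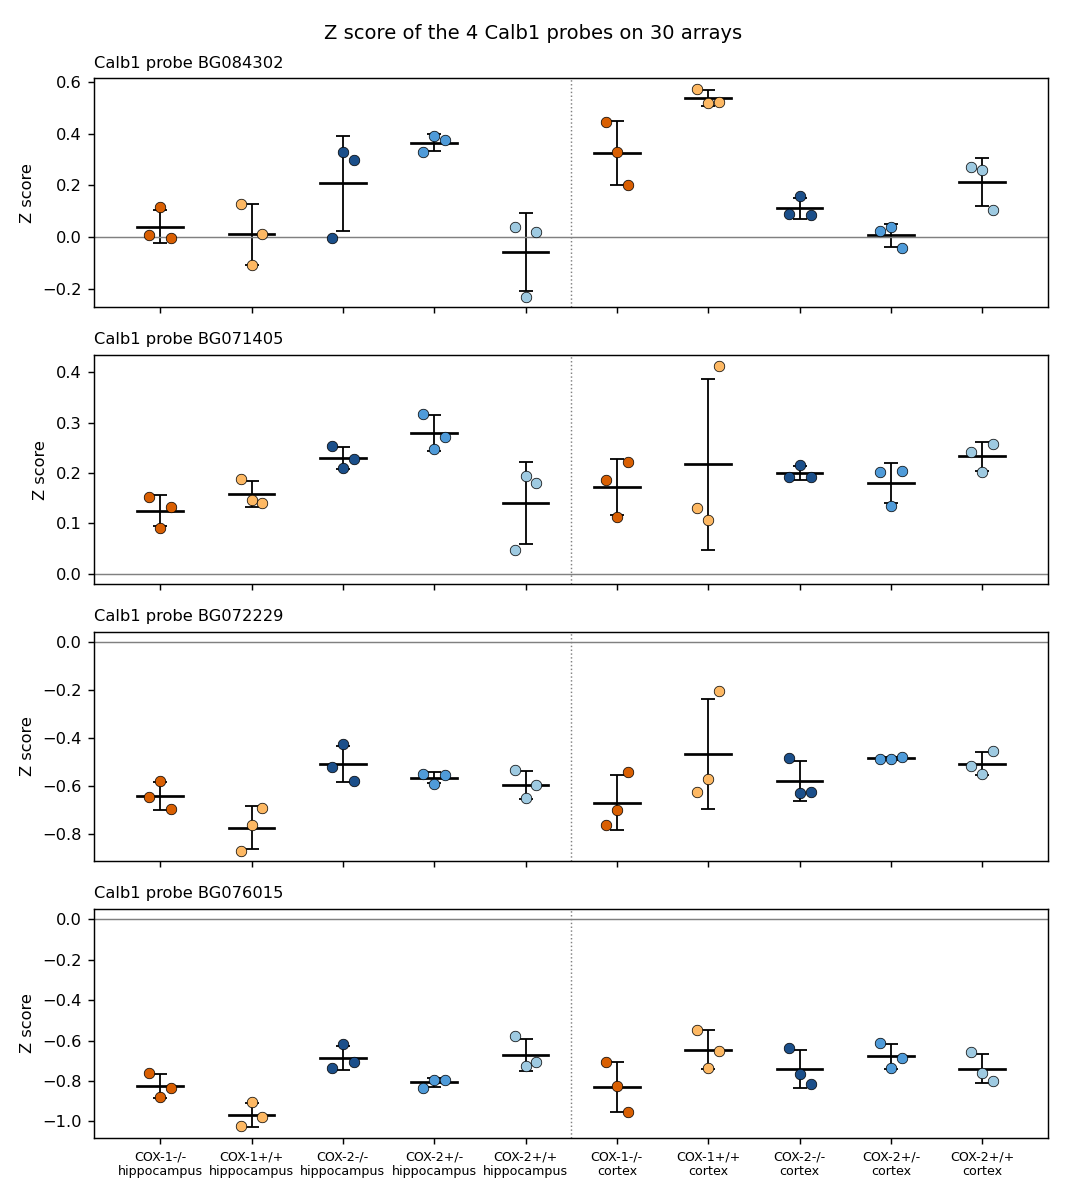
Z score (vertical axis, no unit) of each Calb1 probe on each of the 30 arrays, by group, with hippocampus left of the dotted line and cortex right of it; points are arrays, long bars are group means and error bars are SDs of 3 arrays. BG084302 spans group means from -0.058 in COX-2+/+ hippocampus to 0.537 in COX-1+/+ cortex, while BG072229 and BG076015 lie below 0 throughout.

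In COX-1+/+ cortex, which gave the highest BG084302 mean, the arrays read 0.573, 0.518 and 0.520. The next group, COX-2+/- hippocampus, read 0.330, 0.393 and 0.374, below all 3 COX-1+/+ cortex arrays. Every later neighbour in the order of means overlapped the group above it. That order ran on through COX-1-/- cortex (0.325 ± 0.122, SD, n = 3), COX-2+/+ cortex (0.212 ± 0.0924), COX-2-/- hippocampus (0.208 ± 0.184) and COX-2-/- cortex (0.111 ± 0.0417). COX-1-/- hippocampus (0.0409 ± 0.0653), COX-1+/+ hippocampus (0.0108 ± 0.118), COX-2+/- cortex (0.00661 ± 0.0444) and COX-2+/+ hippocampus (-0.058 ± 0.151) closed it. The highest and the lowest group were thus both wild types, of different lines and regions.

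For BG071405 all neighbours in the order of means overlapped. The highest mean was in COX-2+/- hippocampus, at 0.279 ± 0.0355 (SD, n = 3), and the lowest was in COX-1-/- hippocampus at 0.126 ± 0.0314. The widest spread was in COX-1+/+ cortex, where arrays read 0.131, 0.107 and 0.414.

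Calb1 rose in COX-2+/- hippocampus as BG084302 read it. BG084302 read 0.330, 0.393 and 0.374 on the COX-2+/- arrays, against 0.0385, -0.232 and 0.0188 on the COX-2+/+ arrays. All 3 heterozygous arrays were above all 3 wild-type arrays, a separation in this direction that 15.7% of all probes showed. The difference was 0.424 Z (SE 0.0896, 95% interval 0.232 to 0.616, limma adjusted p = 0.0275), in a comparison where 2.82% of 8041 probes passed the test. Its z ratio, the difference divided by the SD of all differences on the array, was 3.55, and it met the rule of the study, as 3.87% of probes did upward. BG084302 passed the filter on a mean Z above 0 through the heterozygous group, since its mean was 0.366 in COX-2+/- and -0.058, below background, in COX-2+/+ hippocampus. With no filter, over all probes, limma's adjusted p was 0.0354, where 284 of 16896 probes passed. The study's rule asks for a Z averaging above 0, for a z ratio of more than 1.5 in size and for a passed replicate test.

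That call depended on single arrays. The difference stayed between 0.337 and 0.472 when any 1 of the 6 arrays was left out, and the adjusted p was between 0.0476 and 0.131. The call was kept only without COX-2+/+ array 1 (adjusted p = 0.0476). It was lost without COX-2+/+ array 2 (0.131), COX-2+/+ array 3 (0.0545), COX-2+/- array 1 (0.0807), COX-2+/- array 2 (0.0939) and COX-2+/- array 3 (0.106). The number of probes called in the comparison dropped too, to between 13 and 62 of the 227 called with all arrays. COX-2+/+ array 2, at -0.232, was the lowest BG084302 value of the series.

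BG071405 lay in the same direction in this comparison without passing the test. It read 0.318, 0.249 and 0.271 on the COX-2+/- hippocampus arrays, against 0.0474, 0.194 and 0.180 on the COX-2+/+ arrays, with no overlap. The difference was 0.139 Z (SE 0.0442, 95% interval 0.0445 to 0.234, limma adjusted p = 0.103). Set against both lines' wild types together it was 0.130 and passed (adjusted p = 0.0449), while it was 0.0864 with the correction for row order (adjusted p = 0.215) and 0.0925 without COX-2+/+ array 1 (adjusted p = 0.324). The dim probes gave -0.137 for BG076015 (SE 0.0517), opposite in sign and with no overlap (14.7% of probes separated downward), and 0.0299 for BG072229 (SE 0.0548).

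In COX-2-/- hippocampus, set against the same COX-2+/+ arrays, the BG084302 values were split. They read -0.00360, 0.330 and 0.297, against 0.0385, -0.232 and 0.0188 in COX-2+/+ hippocampus. Arrays 2 and 3 of the null group were above every wild-type array, while array 1 lay within the wild-type range. The difference was 0.266 Z (SE 0.0896, 95% interval 0.0743 to 0.458, limma adjusted p = 0.304), its z ratio was 2.54, and the study's rule, met upward by 2.06% of probes, was not met, because its replicate test was not passed. Here limma called 0 of 8040 probes (985 at an unadjusted p under 0.05). When COX-2-/- array 1 was left out, the difference was 0.372 (adjusted p = 0.0591), and without COX-2+/+ array 2 it was 0.179 (adjusted p = 0.673). Among all probes, limma called 57 of 8046 without COX-2-/- array 1 and 0 of 8051 without COX-2+/+ array 2.

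BG071405 read 0.254, 0.211 and 0.228 in COX-2-/- hippocampus, against 0.0474, 0.194 and 0.180 in COX-2+/+ hippocampus. The null arrays were all higher, a separation that 8.4% of probes showed upward, and the difference was 0.0905 Z (SE 0.0442, adjusted p = 0.420). Without COX-2+/+ array 1 it was 0.0439 (adjusted p = 0.713). On BG084302 the mean was 0.208 in COX-2-/- and 0.366 in COX-2+/- hippocampus, but the ranges nearly touched. The highest COX-2-/- array was at 0.3298 and the lowest COX-2+/- array at 0.3302, while COX-2-/- array 1 was at -0.00360. The difference in means of -0.158 was described and not tested, and how many other probes separated in this way was not counted.

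In the cortex of the same line BG084302 lay the other way. The probe read 0.0224, 0.0410 and -0.0436 in COX-2+/- cortex, against 0.271, 0.259 and 0.105 in COX-2+/+ cortex. All 3 heterozygous arrays were below all 3 wild-type arrays, as in 8.02% of probes. The difference was -0.205 Z (SE 0.0533, 95% interval -0.323 to -0.0871, z ratio -1.91) and met the study's rule, as 1.88% of probes did downward. It did not pass limma (adjusted p = 0.377), which called 0 of 8011 probes in this comparison, with 699 at an unadjusted p under 0.05.

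COX-2-/- cortex lay between those groups on BG084302, at 0.0874, 0.159 and 0.0858, against 0.271, 0.259 and 0.105 in COX-2+/+ cortex. The ranges overlapped and the difference was -0.101 Z (SE 0.0533, 95% interval -0.219 to 0.0169, adjusted p = 0.523), where limma called 0 of 8003 probes and 833 had an unadjusted p under 0.05. The difference was -0.154 when COX-2+/+ cortex array 3 was left out (adjusted p = 0.453). BG071405 differed from COX-2+/+ cortex by -0.0333 in COX-2-/- cortex (SE 0.0403, adjusted p = 0.770). It differed by -0.0525 in COX-2+/- cortex (SE 0.0403, adjusted p = 0.734). Its cortex arrays of the COX-2 line all lay between 0.135 and 0.257.

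**Figure D2:**
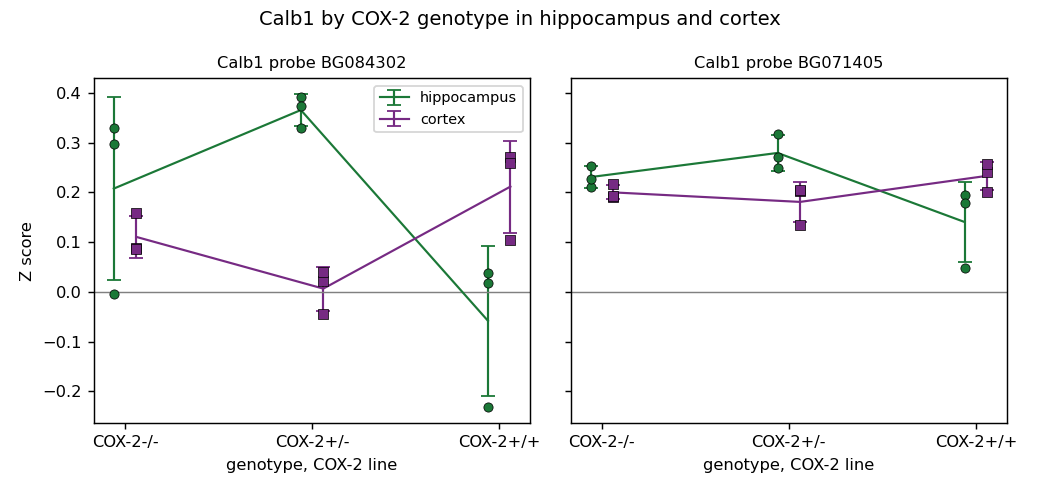
Z score (vertical axis, no unit) of the bright Calb1 probes by COX-2 genotype in hippocampus (green circles) and cortex (purple squares); points are arrays, lines join group means and error bars are SDs of 3 arrays. On BG084302 the COX-2+/- mean is the highest of the hippocampus at 0.366 and the lowest of the cortex at 0.00661.

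Whether the COX-2 genotype effect differed between the regions was tested on the 18 arrays of the COX-2 line. For COX-2-/- this was planned, and for COX-2+/- it was added after the values were seen. The COX-2+/- effect on BG084302 was 0.629 Z larger in hippocampus than in cortex (SE 0.114, 95% interval 0.389 to 0.870, limma adjusted p = 0.00681), where 4.26% of 8011 probes passed. It passed without each of the 12 arrays in turn, at 0.542 to 0.682. The COX-2-/- effect was 0.367 Z larger in hippocampus (SE 0.114, adjusted p = 0.0983), where 1.17% of 8021 probes passed. It passed only when COX-2-/- hippocampus array 1 was left out (0.473, adjusted p = 0.0133). Leaving out that array raised the calls among all probes from 94 of 8021 to 478 of 8018.

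BG071405 gave smaller values of the same sign. Its COX-2+/- effect was 0.191 Z larger in hippocampus than in cortex (SE 0.0585, adjusted p = 0.0761), and its COX-2-/- effect was 0.124 Z larger (SE 0.0585, adjusted p = 0.234). Neither passed. On the dim probes the COX-2+/- effect in hippocampus minus that in cortex was 0.00767 for BG072229 (SE 0.0690) and -0.197 for BG076015 (SE 0.0786).

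Between hippocampus and cortex, the sign of the BG084302 difference varied with the genotype. Of the COX-2 genotypes only COX-2+/- had a called difference. Averaged over the 3 COX-2 genotypes, BG084302 was 0.0621 Z higher in hippocampus than in cortex (SE 0.0464, 95% interval -0.0361 to 0.160, adjusted p = 0.411), in a comparison where 12.8% of 8013 probes passed. BG071405 was 0.0121 higher (SE 0.0239, adjusted p = 0.786). Neither probe passed a region difference over the line as a whole.

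Within single COX-2 genotypes, a comparison added after the values were seen, BG084302 gave opposite signs. In COX-2+/- mice it was higher in hippocampus (0.330, 0.393 and 0.374) than in cortex (0.0224, 0.0410 and -0.0436), by 0.359 Z (SE 0.0804, adjusted p = 0.00903), where 13.3% of probes passed and 19.6% separated upward. In COX-2+/+ mice the hippocampus arrays (0.0385, -0.232 and 0.0188) lay below the cortex arrays (0.271, 0.259 and 0.105). The difference was -0.270 Z (SE 0.0804, adjusted p = 0.0621), where 4.57% passed and 13.6% separated downward. It was -0.183 without COX-2+/+ hippocampus array 2 (adjusted p = 0.254).

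In COX-2-/- mice the BG084302 difference between hippocampus and cortex was 0.0971 Z (SE 0.0804, adjusted p = 0.591), where 0.461% of probes passed. In the COX-1 line, given as a description, BG084302 was lower in hippocampus in both genotypes. COX-1-/- hippocampus averaged 0.0409 and COX-1-/- cortex 0.325, and COX-1+/+ hippocampus averaged 0.0108 and COX-1+/+ cortex 0.537. Neither pair overlapped, and how many other probes separated in this way was not counted. The COX-1 cortex arrays belong to the contrast that chose the gene, so their values lend no support to the COX-2+/+ difference.

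**Figure D3:**
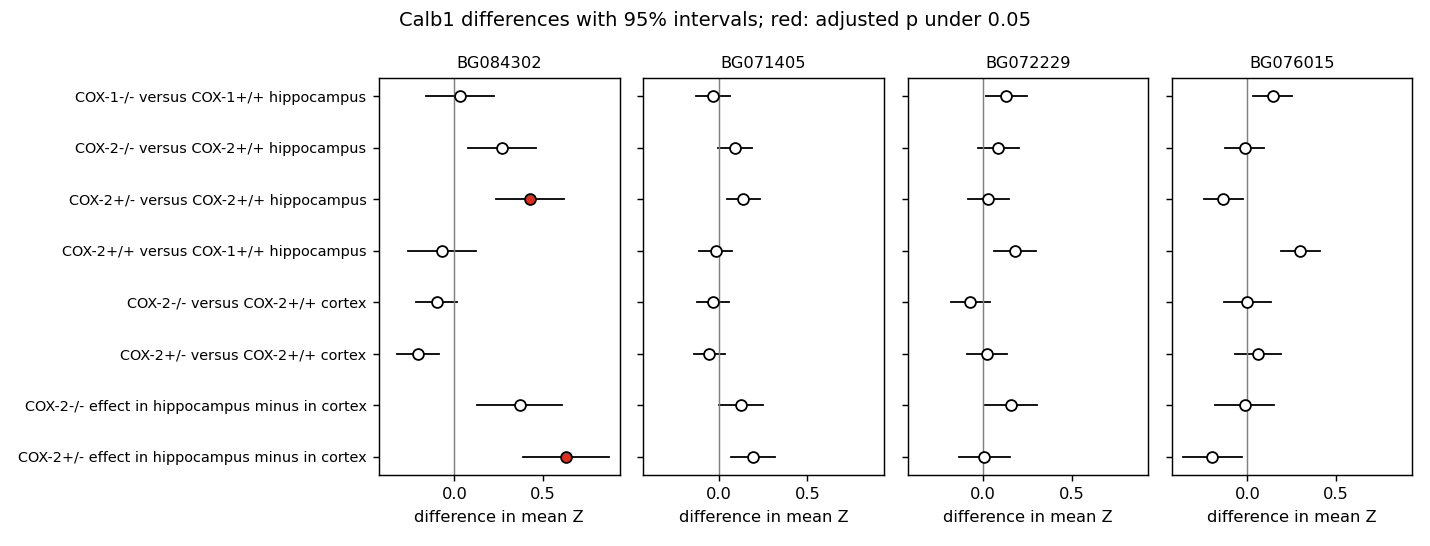
Difference in mean Z (horizontal axis, no unit) for each Calb1 probe in the genotype and line comparisons of each region, and for the COX-2 effects in hippocampus minus cortex, first-named group minus second; circles are differences, lines are 95% intervals from limma, and red marks an adjusted p under 0.05. The 2 red circles are BG084302 in COX-2+/- hippocampus at 0.424 and its COX-2+/- effect in hippocampus minus cortex at 0.629.

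In COX-1-/- hippocampus neither bright probe had a called difference. BG084302 read 0.00852, 0.116 and -0.00192 in COX-1-/- hippocampus, against 0.129, -0.108 and 0.0114 in COX-1+/+ hippocampus. The COX-1-/- arrays lay inside the wild-type range, and the difference was 0.0301 Z (SE 0.0896, 95% interval -0.162 to 0.222, adjusted p = 0.909), where 0.31% of 8058 probes passed. The sign was not settled, since it turned to -0.0291 without COX-1+/+ array 2 and to -0.00747 without COX-1-/- array 2.

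BG071405 read 0.152, 0.0911 and 0.133 in COX-1-/- hippocampus, against 0.189, 0.147 and 0.140 in COX-1+/+ hippocampus, and differed by -0.0330 (SE 0.0442, 95% interval -0.128 to 0.0615, adjusted p = 0.761). The dim probes gave differences of 0.143 for BG076015 (SE 0.0517) and 0.132 for BG072229 (SE 0.0548), below background on both sides. BG076015 separated without overlap, as 10.9% of probes did upward, and BG072229 did not. The COX-2-/- effect minus the COX-1-/- effect in hippocampus was 0.236 on BG084302 (SE 0.127, adjusted p = 0.701) and 0.123 on BG071405 (SE 0.0625, adjusted p = 0.688). In that test limma called 0 of 8040 probes, with 607 at an unadjusted p under 0.05.

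In COX-1 cortex, the contrast that chose the gene, BG084302 read 0.445, 0.330 and 0.201 in COX-1-/- mice, against 0.573, 0.518 and 0.520 in COX-1+/+ mice. The COX-1-/- arrays were all lower, as in 9.38% of the second-part probes, and the difference was -0.212 Z. Its z ratio was -1.91 with the SD of second-part differences and -2.39 with the SD over all probes, copied values included. The study's rule was met, as by 1.71% of second-part probes downward. BG072229 (-0.202, z ratio -1.82) and BG076015 (-0.185, z ratio -1.66) passed the z ratio but did not meet the rule. They lay well below background, at a mean Z of -0.567 and -0.738, and their groups overlapped. BG071405 fell well short of the z ratio limit, at -0.0440 with a z ratio of -0.40.

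The wild types of the lines were also set side by side. In cortex, BG084302 averaged 0.212 in COX-2+/+ and 0.537 in COX-1+/+ mice, a described difference of -0.325 with no overlap. How many other probes separated there was not counted. The comparison shares its COX-1+/+ arrays with that of COX-1-/- and COX-1+/+ cortex (-0.212). When the wild types of both lines were pooled, the COX-1-/- cortex difference was -0.0493. In hippocampus, BG084302 averaged -0.058 in COX-2+/+ and 0.0108 in COX-1+/+ mice, with overlap (-0.0689, SE 0.0896).

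The dim probes separated the wild types in hippocampus. BG076015 read between -0.725 and -0.580 in COX-2+/+ hippocampus, against -1.02 to -0.903 in COX-1+/+ hippocampus. BG072229 read between -0.651 and -0.534 in COX-2+/+ hippocampus, against -0.868 to -0.690 in COX-1+/+ hippocampus. The differences were 0.297 (SE 0.0517) and 0.179 (SE 0.0548), in a comparison where 18.2% of all probes separated upward and limma called 5.25% of 8054. Adjusted over all probes with no filter, limma's adjusted p was 0.00417 for BG076015 and 0.0451 for BG072229. In that setting limma called 2160 of 16896 probes. With the correction for row order the BG072229 difference was 0.0850, and the 200 rows around that probe had a median difference of 0.0803. Both probes lay under the study's limit of background on every array.

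The 4 Calb1 probes followed each other to different degrees across arrays. Over the 24 arrays outside COX-1 cortex, the bright probes BG084302 and BG071405 correlated at r = 0.521, with 0.550 within the 15 hippocampus arrays and 0.392 within the 9 cortex arrays. Among all 16895 other probes, BG084302 ranked number 669 in its likeness to BG071405. The dim probes followed each other more closely, at r = 0.760, and BG072229 ranked number 45 of 16895 for BG076015.

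Across the pairs, r lay between 0.0286 (BG071405 and BG076015) and 0.278 (BG084302 and BG072229). Over all 30 arrays r between the bright probes was 0.291. These are descriptions over arrays that share their groups and their scaling. Which stretch of the Calb1 transcript each clone covers was not analysed here.

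**Figure D4:**
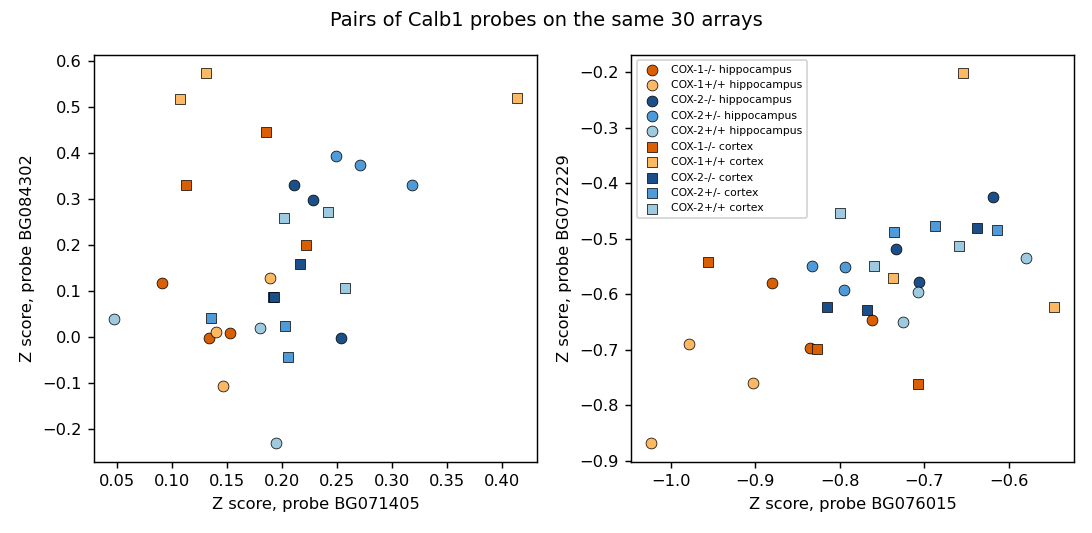
Z scores (both axes, no unit) of the bright Calb1 probes (left) and the dim probes (right) on the same 30 arrays, with circles for hippocampus, squares for cortex and colours for genotype. The COX-1+/+ cortex arrays sit apart on BG084302 at 0.518 to 0.573, while their BG071405 values run between 0.107 and 0.414.

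The genes whose arrays were most like the brightest Calb1 probe were drawn from 4542 other probes with 1 symbol and a mean Z above 0. For BG071405 over 24 arrays they were Ppp2r5e, a regulatory subunit of protein phosphatase 2A (r = 0.785), Sun1, a nuclear envelope protein (0.749), Stat3, a transcription factor of cytokine signalling (0.743), Tex15, known from meiosis (0.739), and Hspa5, the chaperone BiP of the endoplasmic reticulum (0.735). Within the 9 cortex arrays r was lower for each of these, between -0.0376 for Stat3 and 0.673 for Ppp2r5e. The Ppp2r5e probe lay close to BG071405 in the table, at row 11861 beside row 11883.

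For BG084302, ranked in the same way after the values were seen, they were Snf8 (0.900), a subunit of the endosomal ESCRT-II complex, Dbpht2 (0.890), Gng12, a G protein gamma subunit (0.886), Lsm14a, an RNA-binding protein of processing bodies (0.882), and Arl1, a small GTPase of the Golgi (0.881). No gene was among the 5 nearest of both bright probes, and no EF-hand gene was among them.

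Among other EF-hand calcium binding genes, 0 of 13 probes above background passed in COX-2+/- hippocampus, against 2.82% of all probes. So short a list cannot set Calb1 apart from its family by that count. Of 49 EF-hand genes, 19 had a probe of their own symbol, and 13 of their 23 probes had a mean Z above 0. The brightest were the 3 probes of Calm2, which encodes calmodulin, with means of 1.83 to 1.93. Calb2 (calretinin), Pvalb (parvalbumin) and S100b, the closest companions of Calb1 as neuronal and glial markers, had no probe carrying their symbol alone and could not be read.

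In COX-2+/- against COX-2+/+ hippocampus, 0 of the 13 EF-hand probes passed in either direction, and 0 had an unadjusted p under 0.05. Over all 8041 probes 2.82% passed and 18.7% had an unadjusted p under 0.05. The 13 differences ran between -0.0852 (Pdcd6) and 0.0945 (S100a6), both named after their values were seen, with a median of -0.0115 against 0.00375 over all 8041 probes. BG084302 at 0.424 and BG071405 at 0.139 both lay above that range. In COX-2+/- against COX-2+/+ cortex the 13 ran between -0.118 and 0.116, above the -0.205 of BG084302, and 0 passed, as did 0 of all 8011 probes.

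In the COX-2-/- cortex, COX-1-/- hippocampus and COX-2-/- hippocampus comparisons 0 of 13 passed, and 1 probe in all, Pdcd6 in COX-2-/- cortex, had an unadjusted p under 0.05. Over all probes 0%, 0.31% and 0% passed in these comparisons, and 10.4%, 16.4% and 12.3% had an unadjusted p under 0.05. The exception among all EF-hand tests was Pdcd6, the calcium sensor ALG-2. It was higher in COX-2+/+ than in COX-1+/+ hippocampus by 0.208 (SE 0.0561, adjusted p = 0.0467), where 5.25% of all probes passed and 12 of the 13 EF-hand probes had a difference above 0. It also met the study's rule in COX-2-/- against COX-2+/+ cortex (0.153, adjusted p = 0.353), as 2.69% of probes did upward.

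**Figure D5:**
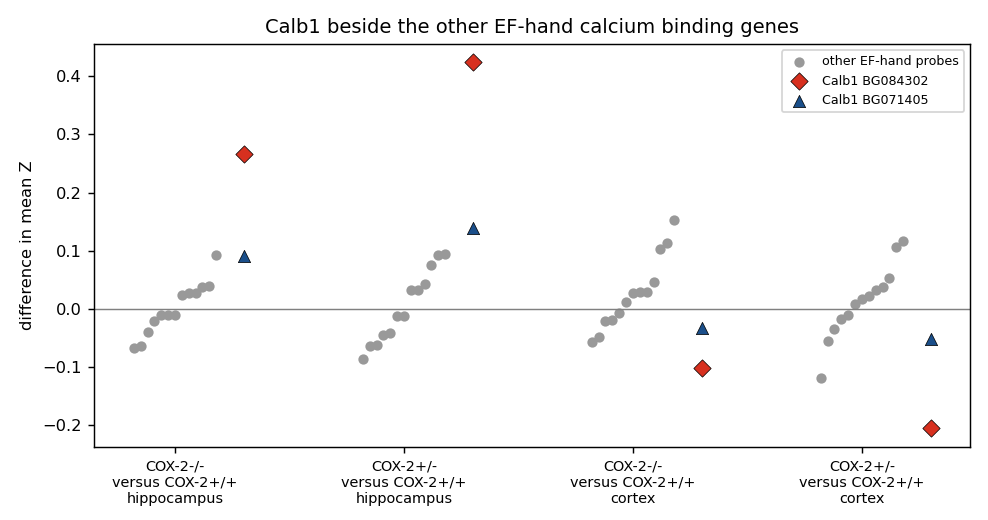
Difference in mean Z (vertical axis, no unit) of the 13 other EF-hand probes (grey) and of Calb1 probes BG084302 (red diamonds) and BG071405 (blue triangles) in 4 comparisons of the COX-2 line. In COX-2+/- hippocampus the grey points reach 0.0945, below BG071405 at 0.139 and BG084302 at 0.424.

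Markers of the cells that carry calbindin, and of cells that could come along in the dissection, were read beside the COX-2+/- hippocampus result. For dentate granule cells, 5 of 14 genes had a probe and 1 was above 0. It ranged from 0.206 to 0.222 on the COX-2+/- arrays and from 0.129 to 0.196 on the COX-2+/+ arrays, and its difference of 0.0468 did not pass. For GABA interneurons, 0 of 20 genes had a probe of their own symbol.

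For CA1 and CA3 pyramidal cells, 3 of 13 genes had a probe and 1, Pou3f1, was above 0. Pou3f1, a transcription factor of CA1 neurons, read 0.639, 0.579 and 0.621 in COX-2+/- hippocampus, against 0.719, 0.952 and 0.909 in COX-2+/+ hippocampus. It fell by 0.247 (SE 0.0562, adjusted p = 0.0341), opposite in sign to BG084302. Its part in the Calb1 result was not tested.

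Choroid plexus was marked by Ttr alone, with a probe for 1 of 8 genes. Ttr, the transthyretin of that tissue, read 0.833, 1.90 and 0.246 in COX-2+/- hippocampus, against 2.36, 1.97 and 0.402 in COX-2+/+ hippocampus, and differed by -0.584 (SE 0.614, adjusted p = 0.659). It was uneven within both groups. The microglia list (2 of 4 probes above 0) averaged 0.416 to 0.427 on the COX-2+/- arrays and 0.352 to 0.356 on the COX-2+/+ arrays. Of its probes 0 of 2 were called, and 1 was higher at an unadjusted p under 0.05. Over all 8041 probes 2.82% were called and 18.7% had an unadjusted p under 0.05. The part of Ttr and of the microglia probes in the Calb1 result was not tested.

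Astrocyte probes above 0 averaged 0.623 to 0.662 in COX-2+/- hippocampus and 0.646 to 0.710 in COX-2+/+ hippocampus. Of these, 0 of 4 were called, against 2.82% of all probes, and 1 was lower at an unadjusted p under 0.05, against 18.7% in either direction. Between regions 2 of the 4 astrocyte probes were higher in hippocampus over the COX-2 line, with a median difference of 0.00574, against 0.00575 over all probes. Of these, Aldoc, an astrocyte aldolase, was 0.145 higher in hippocampus over the COX-2 line (SE 0.0327, adjusted p = 0.00969). In COX-2+/- mice, where BG084302 was also higher in hippocampus, Aldoc (0.238, SE 0.0566, adjusted p = 0.0120) and C1qb (0.129, SE 0.0388, adjusted p = 0.0365) were higher, and Pou3f1 was lower (-0.354, SE 0.0889, adjusted p = 0.0159). The astrocyte list had 2 of 4 probes higher in hippocampus there and a median of -0.0414, against 0.0151 over all probes. The single probes above 0 of the Purkinje and oligodendrocyte lists were not called in COX-2+/- hippocampus. The cortical layer, striatal and thalamic lists had 0 probes above 0.

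The rows around the bright Calb1 probes in the deposited table were read beside them. Of the 200 rows around BG084302, 1 had a larger difference in COX-2+/- against COX-2+/+ hippocampus, and their median was 0.000648. Over all tested probes, 99.7% had a smaller difference than BG084302 there. In COX-2+/- against COX-2+/+ cortex 197 of 200 had a higher difference and the median was 0.0150, while 0.599% of all tested probes had a lower one. Around BG071405 the neighbours' median in COX-2+/- hippocampus was 0.0432, and 21 of 200 exceeded its 0.139, which was larger than in 92.4% of all tested probes. The counts are near these array-wide ranks and give no result about the neighbouring spots.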

How the data were processed

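The authors hybridized 33P-labelled cDNA to nylon arrays, read spots by phosphoimager, and deposited Z scores of natural log intensity, each part of every array having a mean of 0 and an SD of 1 as deposited. The methods give 3 mice a group for the null and wild-type groups, with triplicate hybridization also stated. The labels give replicate numbers only, and the number of COX-2+/- mice is not given in the sources used here. The p-values therefore measure the spread among arrays, which may be technical. Scores were used as deposited. Gene names came from the platform annotation (9663 of 16896 probes with 1 symbol, 436 with several, 6797 with none). Calb1 and all gene lists were chosen with earlier results of these data known.

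limma 3.58.1 (R 4.3.3) was fitted to group means with eBayes, two-sided, and Benjamini-Hochberg adjustment covered all probes with a mean Z above 0 over the compared arrays. An adjusted p under 0.05 was called. Fits used the 15 hippocampus arrays, the 9 COX-2 cortex arrays, or those 18 COX-2 arrays of both regions. COX-1 cortex arrays were kept out because of their copied values. The study's rule was recomputed too, with the SD of all differences as divisor and a normal test on the arrays, and not with the study's own program. The code was tested on simulated data. Named genes were every Calb1 probe, the 5 probes most correlated with the brightest one, and list members that passed. Alternatives were other scalings, filters, variance models, array sets, a row-order correction, a replicate block and each array left out. The number of arrays limits the precision.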

Additional observations from a re-analysis of the deposited data

Results flagged for a closer look

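An effect was flagged if every array lay above its wild-type mean in the first setting and below it in the second, or the reverse. An adjusted p under 0.05 also flagged it. Opposite directions were thus part of the choice, and how many other probes met it was not counted. The COX-2+/- effect on BG084302 was positive in hippocampus and negative in cortex, a difference of 0.629 (limma adjusted p = 0.00681). On BG071405 the same difference was 0.191 (adjusted p = 0.0761), and on the below-background BG076015 it was -0.197 (unadjusted p = 0.0229, a value from limma). The COX-2-/- effect differed between hippocampus and cortex by 0.367 on BG084302 (adjusted p = 0.0983) and by 0.124 on BG071405 (adjusted p = 0.234). In hippocampus, the COX-2-/- effect and the COX-1-/- effect differed by 0.123 on BG071405 (adjusted p = 0.688).

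The COX-1-/- effect on the below-background probes was positive in hippocampus and negative in cortex, a difference of 0.327 for BG076015 and 0.334 for BG072229. These 2 differences were not tested, because the COX-1 cortex contrast chose the gene.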

How the results depend on the processing

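In COX-2+/- against COX-2+/+ hippocampus BG084302 stayed called at 0.389 to 0.424 (adjusted p = 0.00761 to 0.0362). BG071405 was called there with wild types of both lines (0.130), and BG084302 in COX-2+/+ hippocampus against cortex with an intensity trend (-0.270, adjusted p = 0.0378). With wild types of both lines the BG084302 difference in COX-1 cortex was -0.0493, and over 30 arrays r between the bright probes was 0.291. The correction for row order turned BG071405 to 0.0133 in COX-1-/- hippocampus and to 0.0637 between the wild types in hippocampus. Below background, row order gave 0.00261 for BG076015 in COX-2-/- cortex and 0.0279 for BG072229 in the COX-2-/- minus COX-1-/- effect. Wild types of both lines gave BG076015 -0.00590 in COX-1-/-, 0.133 in COX-2-/- and 0.0120 in COX-2+/- hippocampus. Quantile normalization gave it 0.00980 between regions and 0.00170 for the COX-2-/- effect in hippocampus minus cortex. The cause was not tested. A mean Z above 0.5 left no Calb1 probe.

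Leaving out each array in turn, BG084302 ranged between 0.337 and 0.472 in COX-2+/- hippocampus, 0.280 and 0.473 for the COX-2-/- effect in hippocampus minus cortex, and -0.0291 and 0.0890 in COX-1-/- hippocampus. BG071405 ranged between -0.0451 and 0.0284 (BG084302 -0.128 and 0.0179) for the wild types in hippocampus and between -0.0992 and 0.0542 in COX-1 cortex. BG076015 ranged between -0.0522 and 0.0395 in COX-2-/- cortex, -0.0491 and 0.0304 in COX-2-/- hippocampus, -0.0171 and 0.0153 between regions, and -0.0547 and 0.0370 for the COX-2-/- effect in hippocampus minus cortex. BG072229 ranged between -0.0867 and 0.00230 for the COX-2-/- minus COX-1-/- effect and between -0.0207 and 0.0376 for the COX-2+/- effect in hippocampus minus cortex.

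Same-numbered arrays correlated at r = -0.0685 to 0.211, and in 0 of 11 comparisons were all pairs over 0.1, so the numbers were not taken as pairs. With the replicate block BG084302 in COX-2+/- hippocampus stayed at 0.424 (adjusted p = 0.0359), and no Calb1 call changed. Calls among all probes in COX-1-/- hippocampus were 13 with the block and 25 without.

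Among all probes, in COX-2+/- hippocampus 227 calls became 142 with a mean Z above 0.5, 405 with an intensity trend and 804 with wild types of both lines. In COX-1-/- hippocampus 25 became 1 with row order, 110 with no filter, 138 with a trend and 0 with the compared groups only. Between the wild types in hippocampus 423 became 2160 with no filter, 30 with a mean Z above 0.5 and 64 with the compared groups only. In COX-2-/- hippocampus 0 became 155 with wild types of both lines. For the COX-2-/- effect in hippocampus minus cortex 94 became 17 with row order, 32 with a mean Z above 0.5, 298 with no filter, 272 with a trend, 197 with the block, 152 with 24 arrays and 0 with the compared groups only. For the COX-2+/- effect 341 became 541 with no filter. The region difference over the COX-2 line gave 1770 with no filter and 654 with a mean Z above 0.5 besides 1023. Within COX-2-/- 37 became 118, 79, 117, 105, 63 and 0 with row order, no filter, a trend, the block, 24 arrays and the compared groups only. Within COX-2+/- it gave 2194 with no filter besides 1063. Within COX-2+/+ it gave 602 with no filter, 195 with a mean Z above 0.5, 593 with a trend and 18 with the compared groups only besides 366. The fits on 24 arrays and on 15 cortex arrays, and those of the compared groups only between regions, were added after the data were seen.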
